A study of Mus musculus with 5 samples.

Results

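Somatostatin (Sst), cortistatin (Cort) and the somatostatin receptors Sstr1, Sstr2, Sstr3, Sstr4 and Sstr5 were examined in ribosome-bound RNA of the mouse central amygdala (CeA). The members are the 7 genes with these names in the deposited table. Of these, 6 had a row among the 15093 genes listed, and Sstr1 had none. Every listed gene had a value above 1 in at least 1 library, so Sstr1 counts here as not expressed. The family was chosen because its members were known to differ between the groups in these same libraries. Levels and fold differences of the members between groups are therefore a description, and no test of them is given.

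Somatostatin is a neuropeptide released by inhibitory neurons, and in the CeA the neurons that make it are known for their part in learned fear. Cortistatin is a related peptide that binds the same receptors. The receptors couple to inhibitory G proteins, which lower cyclic AMP, open inwardly rectifying potassium channels and reduce transmitter release. Sstr3 is known for its place in the primary cilium of neurons. The Sst gene is a textbook target of the transcription factor CREB, which binds a palindromic cyclic AMP response element in its promoter.

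All animals were adult Drd2-TRAP mice, a cross of a Drd2-Cre line with mice that carry a floxed-stop EGFP/Rpl10a allele at Rosa26. Cre, driven by a Drd2 bacterial artificial chromosome transgene, turns on a GFP-tagged ribosomal protein in cells that have used the Drd2 promoter, and ribosomes are then pulled down with their RNA. The 3 libraries of fear conditioned (FC) mice, replicates 2, 3 and 4, were compared with the 2 libraries of home cage (HC) mice, replicates 6 and 7. Each library pooled bilateral 1 mm punches from 3 animals taken 2 h after the session. The study's results describe the controls as hearing the tone without shock, whereas its methods write HC and the labels call them home cage and place the collection after extinction. Replicates are pools, and p-values below measure the spread between these pools. A punch can reach the neighbouring striatum, and in such bulk samples fewer cells of a type and less RNA per cell cannot be told apart.

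Values are given in counts per 1000000 reads (CPM) of a library size set by the authors. Each value was a whole multiple of what 1 read is worth, so reads could be recovered, and the libraries held 19605318 to 27937520 reads on genes. The HC libraries stood apart from each other. Across genes, their log2 values correlated at r = 0.746, against 0.976 to 0.984 among FC libraries, and genes are not independent replicates. Home cage replicate 7 listed 2681 genes (17.8%) at 0 and replicate 6 listed 976 (6.47%), against 159 to 349 in the FC libraries. Limma tested 13560 genes between the groups and called 0 of them (0.0%) at an adjusted p under 0.05 and a log2 fold change beyond 0.5 either way, while 2280 (16.8%) had an unadjusted p under 0.05. edgeR's quasi-likelihood test on the recovered reads called 0 genes (2039 unadjusted), and DESeq2 called 1017.

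Drd2, the gene whose promoter drives Cre, was read at 326, 375 and 555 CPM in FC replicates 2, 3 and 4 and at 128 and 262 CPM in HC replicates 6 and 7. This marker of the tagged cells was thus present in all 5 libraries and was lower in both HC libraries, but the difference was not called. The adjusted p of Drd2 was 0.239 with limma, 0.322 with edgeR and 0.128 with DESeq2. The study likewise reports no significant change of Drd2 after conditioning. All 7 measured striatal Drd2-neuron genes (of 8 listed, Gpr52 not matched) were higher in each FC library than in either HC library. Among all genes tested, 20.2% were higher without overlap. The list was chosen with earlier results known and holds Adora2a, Gpr6 and Rxrg, which the study reports as raised in these libraries. The summed level was 18884 to 20719 CPM against 7650 and 11787 CPM. Most of it was Penk, at 13565 to 16076 CPM against 6098 and 8606 CPM. Beside these values, 3 receptors were higher and both ligands lower in the FC libraries, and any link between them was not tested.

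The promoters are shown because a cyclic AMP response element is the best known regulatory sequence of this family and because both a ligand and a receptor carry it. RefSeq (GRCm38.p6) gave 6 entries for 5 members, and Sstr1 and Sstr5 had no entry. Each line below gives the 250 bases upstream of the annotated start, 5′ to 3′ on the gene's strand, with the motif in capitals. The Sst promoter is on the minus strand at chr16:23890845-23891094, the Sstr2 promoter on the plus strand at chr11:113619077-113619326, and the upstream Sstr3 promoter on the minus strand at chr15:78544346-78544595.
Sst: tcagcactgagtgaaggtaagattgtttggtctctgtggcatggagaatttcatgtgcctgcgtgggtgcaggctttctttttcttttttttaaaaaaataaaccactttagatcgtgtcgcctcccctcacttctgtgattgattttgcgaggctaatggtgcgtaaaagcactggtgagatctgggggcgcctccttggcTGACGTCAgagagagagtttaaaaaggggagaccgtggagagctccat
Sstr2: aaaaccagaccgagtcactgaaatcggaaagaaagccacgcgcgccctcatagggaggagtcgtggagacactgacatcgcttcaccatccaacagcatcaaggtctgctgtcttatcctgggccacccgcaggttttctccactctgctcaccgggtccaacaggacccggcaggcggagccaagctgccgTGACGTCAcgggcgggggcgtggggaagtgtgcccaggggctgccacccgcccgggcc
Sstr3: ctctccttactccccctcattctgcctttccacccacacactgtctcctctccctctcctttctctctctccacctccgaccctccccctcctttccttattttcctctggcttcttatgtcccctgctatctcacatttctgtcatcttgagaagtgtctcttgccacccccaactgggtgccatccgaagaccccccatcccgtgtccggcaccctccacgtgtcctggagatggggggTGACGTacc

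The full element TGACGTCA, which reads the same on both strands, lay 48 to 41 bases before the start of Sst and 58 to 51 bases before the start of Sstr2. Of all 32851 RefSeq mouse promoter windows of this length, 508 (1.55%) held it. The upstream Sstr3 promoter held only the shorter TGACGT, 9 to 4 bases before its start. Counting both strands, 2125 windows (6.47%) held this shorter motif, which lies within the full element and so overlaps it. The windows of Cort, Sstr4 and the second Sstr3 entry held neither string. Whether the element bears on the levels of Sst or Sstr2 in these libraries was not tested.

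Sst had the highest level of the members per kilobase of transcript, 110 to 468 CPM per kilobase over the 5 libraries. It was read at 133 CPM (2795 reads), 65.5 CPM (1573 reads) and 72.0 CPM (1450 reads) in FC replicates 2, 3 and 4, and at 146 CPM (4368 reads) and 280 CPM (5304 reads) in HC replicates 6 and 7. The groups did not overlap, but the nearest libraries, HC replicate 6 and FC replicate 2, were only 1.1-fold apart. The group means were 90.0 ± 37.0 CPM (SD, n = 3) in FC and 213 ± 94.6 CPM (SD, n = 2) in HC libraries, a 2.36-fold higher mean in the HC group. On the log2(CPM + 1) scale the difference was -1.23, and it was -0.76 without HC replicate 7.

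Sst ranked high among all listed genes when CPM were taken with no correction for length. Its level exceeded 76.0 to 88.6% of listed genes in the FC libraries and 90.3 and 95.1% in the HC libraries. At 1450 to 5304 reads per library, counting error was small beside the spread between pools. No library of unbound RNA was part of the series, so the rank of Sst does not show its level in the tagged cells themselves. By in situ hybridization the study found only limited co-expression of Drd2 with Sst in the CeA.

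Cort, the other ligand, had at most 94 reads in a library. It was read at 1.09, 1.17 and 0.199 CPM in FC replicates 2, 3 and 4 (23, 28 and 4 reads) and at 2.14 and 4.96 CPM in HC replicates 6 and 7 (64 and 94 reads). Both HC libraries lay above all FC libraries, with the nearest libraries 1.83-fold apart. The mean was 0.818 ± 0.538 CPM (SD, n = 3) in FC and 3.55 ± 1.99 CPM (SD, n = 2) in HC libraries, 4.33-fold higher in the latter. The log2(CPM + 1) difference was -1.30, and it was -0.84 without HC replicate 7.

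Both ligands were thus lower in the FC libraries, and the largest value of each was in HC replicate 7. Per kilobase of transcript, Cort amounted to 0.728, 1.57 and 0.244% of Sst in FC replicates 2, 3 and 4 and to 1.30 and 1.57% in HC replicates 6 and 7. Sst exceeded Cort in 5 of 5 libraries, by a mean of 6.76 on the log2 scale of CPM per kilobase (SD 1.08, n = 5). An exact two-sided sign-flip permutation test gave p = 0.0625, the smallest that 5 libraries allow.

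**Figure D1:**
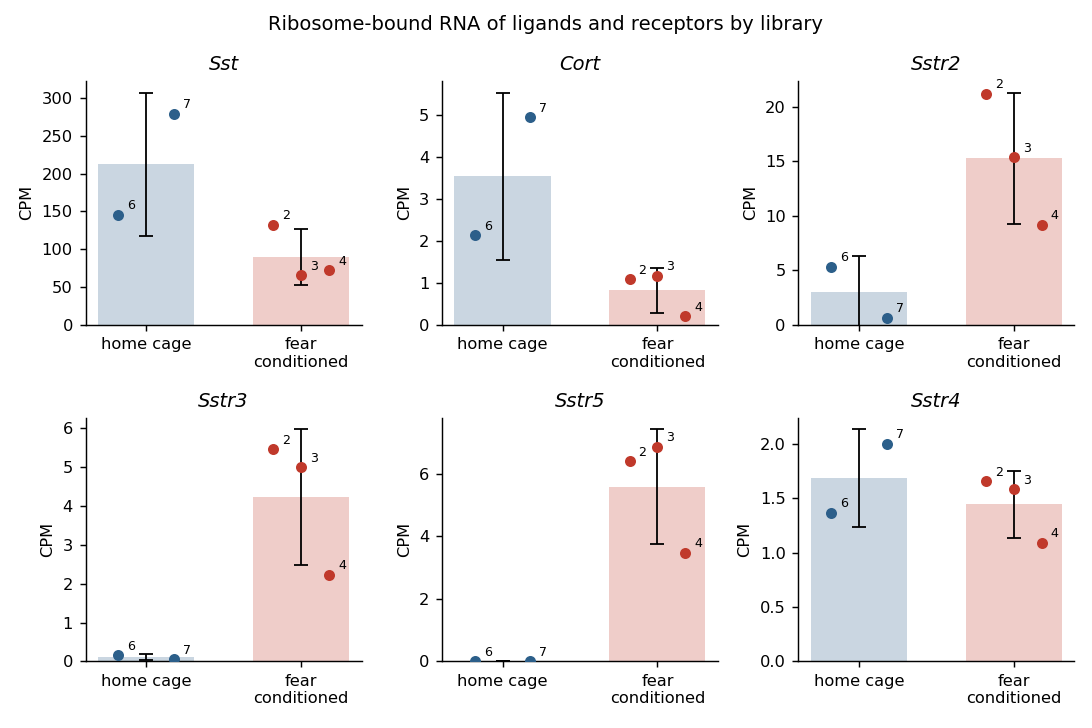
Level of each member with a row, in CPM on linear axes that start at 0 and differ between panels, with 1 numbered point per library (HC replicates 6 and 7, FC replicates 2, 3 and 4). Shaded bars are group means and error bars are SD; Sst and Cort are higher in both HC libraries, Sstr2, Sstr3 and Sstr5 are higher in all 3 FC libraries, the groups overlap for Sstr4, and the HC error bar of Sstr2 is not drawn below 0.

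Sstr2, a receptor that mediates much of the inhibition of neurons by somatostatin, was at 21.2, 15.4 and 9.19 CPM in FC replicates 2, 3 and 4 (448, 370 and 185 reads) and at 5.34 and 0.633 CPM in HC replicates 6 and 7 (160 and 12 reads). Every FC library lay above both HC libraries, and the nearest were 1.72-fold apart. The HC libraries themselves differed 8.44-fold. Means were 15.3 ± 6.03 CPM (SD, n = 3) and 2.99 ± 3.33 CPM (SD, n = 2), 5.11-fold higher in FC libraries. The log2(CPM + 1) difference of 2.27 moved to 1.29 without HC replicate 7 and to 3.25 without HC replicate 6.

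Slc39a11, a zinc transporter gene, overlaps Sstr2 in RefSeq, and the use of strand in counting is not given in the sources used here. Slc39a11 was read at 22.7, 21.8 and 23.8 CPM in FC replicates 2, 3 and 4 and at 20.8 and 12.7 CPM in HC replicates 6 and 7. Slc39a11 was lowest in HC replicate 7, as Sstr2 was, and reads that fall on both genes could not be told apart.

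Sstr3, the receptor known from neuronal cilia, was at 5.45, 5.0 and 2.23 CPM in FC replicates 2, 3 and 4 (115, 120 and 45 reads) and at 0.167 and 0.0527 CPM in HC replicates 6 and 7 (5 reads and 1 read). The groups were well separated, since the lowest FC library was 13.4-fold above the highest HC library. Means were 4.23 ± 1.74 CPM (SD, n = 3) and 0.110 ± 0.0808 CPM (SD, n = 2). With reads pooled by group, 280 against 6, the ratio of reads per depth was 35.0. No interval is given, since the members were chosen on this contrast and pooled reads hide the spread between libraries. The log2(CPM + 1) difference was 2.17, a scale that understates the change of a gene this low.

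Sstr5 had no read in either HC library. In FC replicates 2, 3 and 4 it was at 6.40, 6.87 and 3.48 CPM (135, 165 and 70 reads), with a mean of 5.58 ± 1.84 CPM (SD, n = 3). By counting error alone, a count of 0 allows up to 3 reads per library, or a mean of 0.129 CPM over the HC libraries. The FC mean was 43.2-fold above this floor. The floor is not a firm bound, since genes with many reads in 1 HC library could be at 0 in the other. Pcsk1, for example, had 237 reads in HC replicate 6 and 0 in replicate 7. The log2(CPM + 1) difference was 2.68. The reads of HC replicate 6, the deepest library, numbered 27937520 on genes, and the floor covers counting error only. The study lists Sstr5 among the genes raised after conditioning in these libraries, a call from its own methods that was not tested again here.

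Sstr4 was the member that did not separate the groups. It was at 1.66, 1.58 and 1.09 CPM in FC replicates 2, 3 and 4 (35, 38 and 22 reads) and at 1.37 and 2.00 CPM in HC replicates 6 and 7 (41 and 38 reads). Means were 1.44 ± 0.308 CPM (SD, n = 3) and 1.69 ± 0.449 CPM (SD, n = 2), and the ranges overlapped. The log2(CPM + 1) difference was -0.13, well inside the spread of either group.

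In all, 3 members (Sstr2, Sstr3, Sstr5) were higher in every FC library, 2 (Sst, Cort) were lower in each, and 1 (Sstr4) overlapped. Among all genes tested, 20.2% were higher and 16.1% lower without overlap. The members were picked on this contrast, and their count is given only for description. Groups that do not overlap cannot come to overlap when a library is left out. Without HC replicate 6, Sstr4 also stood lower in the FC libraries, and the shares of all genes were then 49.4% higher and 38.3% lower. Sstr5 was 1 of 218 genes (1.61%) with 3 reads or fewer in both HC libraries and more in all FC libraries, and 1 of 146 genes (1.08%) with 0 reads in both HC libraries and over 3 in all FC libraries.

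**Figure D2:**
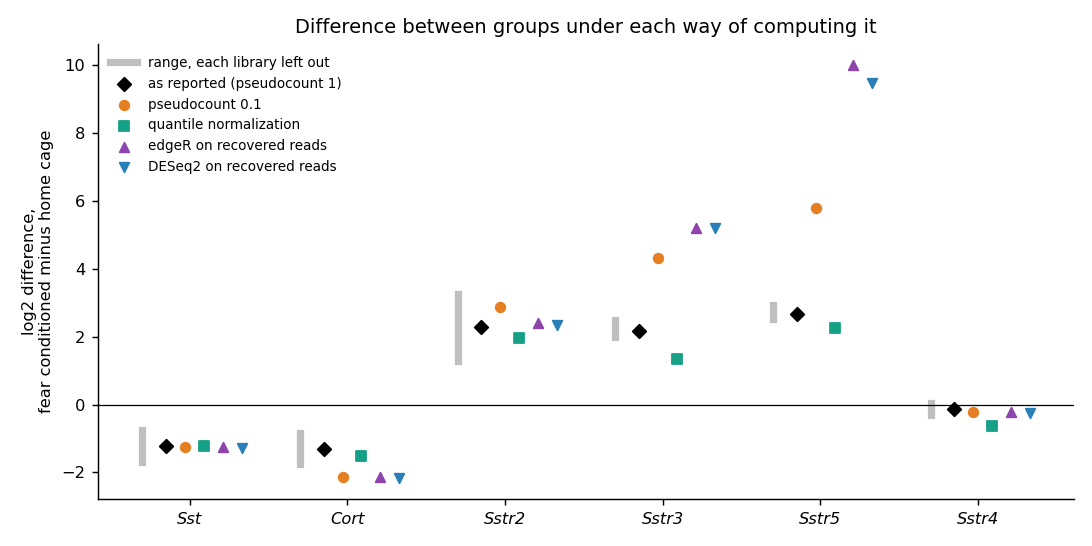
Difference of the group means on the log2 scale, FC minus HC, for each member as reported (black diamonds), under a pseudocount of 0.1, quantile normalization, edgeR and DESeq2 (coloured symbols), and as the range with each library left out (grey bars). Sst and Cort lie below 0 and Sstr2, Sstr3 and Sstr5 above 0 throughout, the Sstr2 range runs from 1.29 to 3.25, and the Sstr4 range crosses 0 (-0.31 to 0.037).

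Levels of different genes were compared in CPM per kilobase of the deposited length. In the FC group the per-kilobase means were 8.10 ± 3.20 for Sstr2, 2.07 ± 0.683 for Sstr5, 1.08 ± 0.444 for Sstr3 and 0.406 ± 0.0864 for Sstr4 (SD, n = 3). This order, Sstr2 over Sstr5 over Sstr3 over Sstr4, held in all 3 FC libraries. In the HC group the per-kilobase means were 1.58 ± 1.77 for Sstr2, 0.474 ± 0.126 for Sstr4, 0.0280 ± 0.0206 for Sstr3 and 0 for Sstr5 (SD, n = 2). Sstr2 came first in HC replicate 6, at 2.83 CPM per kilobase, but Sstr4 came first in replicate 7, at 0.563 CPM per kilobase against 0.336 for Sstr2.

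Over all 5 libraries, which mix both orders, an exact sign-flip permutation test cannot give a p under 0.0625, so it could call no pair of neighbours. Sstr2 exceeded Sstr4 by 2.98 on the log2 scale of CPM per kilobase (SD 2.15, n = 5), in 4 of 5 libraries (exact two-sided sign-flip permutation test, p = 0.125, adjusted p = 0.375 over 3 pairs). Sstr4 against Sstr3 differed by 0.79 (SD 2.96, n = 5) and was higher in 2 of 5 libraries (exact permutation p = 0.625, adjusted p = 0.875). Sstr3 against Sstr5 differed by 0.20 (SD 1.76, n = 5), with Sstr3 higher in 2 of 5 libraries (exact permutation p = 0.875, adjusted p = 0.875). The sign of both smaller differences turned when single libraries were left out or values were quantile normalized.

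The make-up of the receptor pool also differed from library to library. Sstr2 made up 72.7, 65.7 and 69.2% of the summed receptor CPM per kilobase in FC replicates 2, 3 and 4, and 86.9 and 36.8% in HC replicates 6 and 7. The Sstr5 share was 15.3, 20.5 and 18.3% in the FC libraries and 0 in both HC libraries. Sstr3 held 8.97, 10.2 and 8.09% of the FC sums, against 1.30 and 1.47% of the HC sums. Sstr4 held 3.01 to 4.36% of the FC sums but 11.8 and 61.7% of the HC sums. The FC pools were therefore alike in make-up, and the HC pools were not alike, and Sstr2 in replicate 7 rested on 12 reads.

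**Figure D3:**
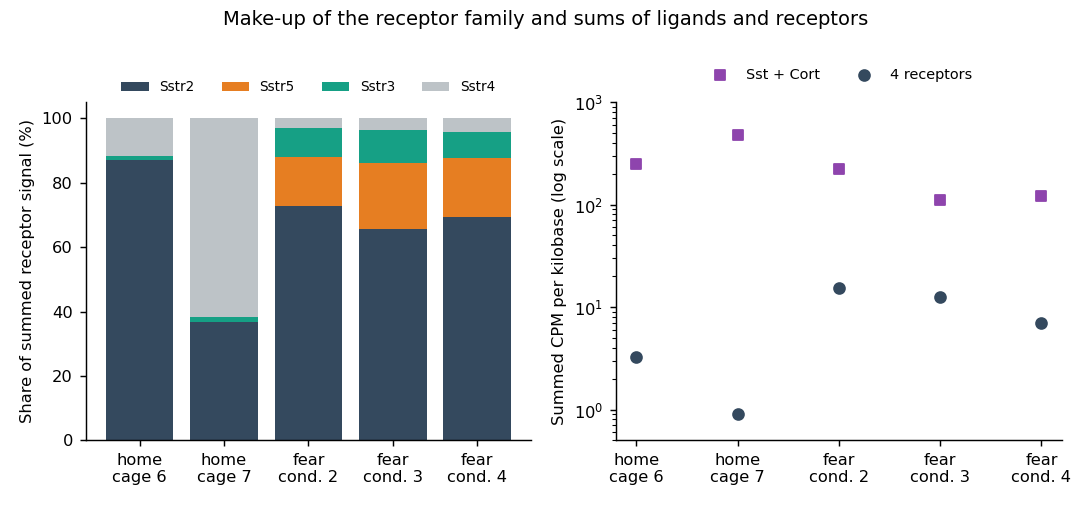
Left, share of each receptor in the summed receptor level of each library, in percent of CPM per kilobase; right, summed CPM per kilobase of Sst and Cort (squares) and of the 4 receptors (circles) on a log axis. The 3 FC libraries have 65.7 to 72.7% Sstr2 and 15.3 to 20.5% Sstr5, whereas Sstr5 is absent from both HC bars and Sstr4 takes 61.7% of HC replicate 7.

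Summed per kilobase, the receptors came to 15.5, 12.4 and 7.04 CPM in FC replicates 2, 3 and 4 and to 3.26 and 0.912 CPM in HC replicates 6 and 7. The summed ligands came to 224, 111 and 121 CPM per kilobase in the FC libraries and to 247 and 476 CPM per kilobase in the HC libraries. Ligand RNA exceeded receptor RNA in every library, and the ratio was smallest in the FC group. It was 14.4, 8.96 and 17.2 in FC replicates 2, 3 and 4, against 75.9 and 522 in HC replicates 6 and 7. These ratios join the member differences above and add no separate evidence.

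Sst was set against other genes of CeA and striatal neurons in the same libraries, per kilobase. The Sst level was 1.73, 0.744 and 0.552 times that of Drd2 in FC replicates 2, 3 and 4 and 4.83 and 4.55 times that of Drd2 in HC replicates 6 and 7. Against Penk, the enkephalin precursor of Drd2 neurons, Sst per kilobase was 0.0280, 0.0164 and 0.0163 times as high in the FC and 0.0812 and 0.110 times as high in the HC libraries. Sst thus made up a larger part relative to both genes in the HC libraries.

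Against Npy, the neuropeptide Y gene that many Sst interneurons also use, the ratio stayed between 2.16 and 2.77. Sst per kilobase was 2.34, 2.16 and 2.18 times Npy in FC replicates 2, 3 and 4 and 2.77 and 2.21 times Npy in HC replicates 6 and 7. Other CeA peptides did not keep such a ratio. Sst was 8.69, 19.7 and 11 times Crh, the corticotropin releasing hormone gene, in the FC libraries and 10.8 and 558 times Crh in the HC libraries. Tac2, the neurokinin B gene, was listed at 0 in HC replicate 7. Against Nts, the neurotensin gene, the ratio was 3.08, 1.86 and 3.12 in the FC and 4.87 and 3.72 in the HC libraries. Against Prkcd, the protein kinase C delta gene, it was 109, 51.9 and 60.8 in the FC and 97.0 and 64.2 in the HC libraries, so these groups overlapped. Npy is also among the genes nearest in course to Sst given below, so its steady ratio restates that likeness. Other genes often found in Sst neurons, listed further below, did not all share this course. From HC replicate 6 to 7, Satb1 and Elfn1 rose, as Sst and Npy did, and the rest of that list fell.

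For each member the 3 genes with the most similar course over the 5 libraries were found, by the root mean square (RMS) difference of centred log2(CPM + 1) values. For Sst these were Ltbp3 (RMS 0.121), Gnas (0.128) and Npy (0.134). Npy was at 53.2, 28.5 and 31.0 CPM in FC replicates 2, 3 and 4 and at 49.6 and 119 CPM in HC replicates 6 and 7. Fear conditioned replicate 2 was the highest of its group and HC replicate 7 the highest of all for both Sst and Npy. The nearest genes to Cort were Rph3al (0.110), Rprm (0.137) and Dysf (0.147).

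Among the receptors, the nearest genes to Sstr2 were Zfp575 (RMS 0.232), Tgfb3 (0.258) and Lhx2 (0.268). Lhx2, a LIM homeobox factor, was at 14.2, 11.1 and 8.79 CPM in the FC libraries and at 5.18 and 0 CPM in HC replicates 6 and 7. For Sstr3 they were Tpx2 (0.149), Slco5a1 (0.164) and A930024N18Rik (0.189), and for Sstr5 they were 1700037C18Rik (0.162), Zfp786 (0.171) and again A930024N18Rik (0.207). These 5 genes had 0 to 0.10 CPM in the HC libraries. Sstr4 followed the near-flat genes Fam131b (0.0297), Polr3k (0.0319) and Psma7 (0.0463). The likeness is a description over 5 libraries and carries no test.

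**Figure D4:**
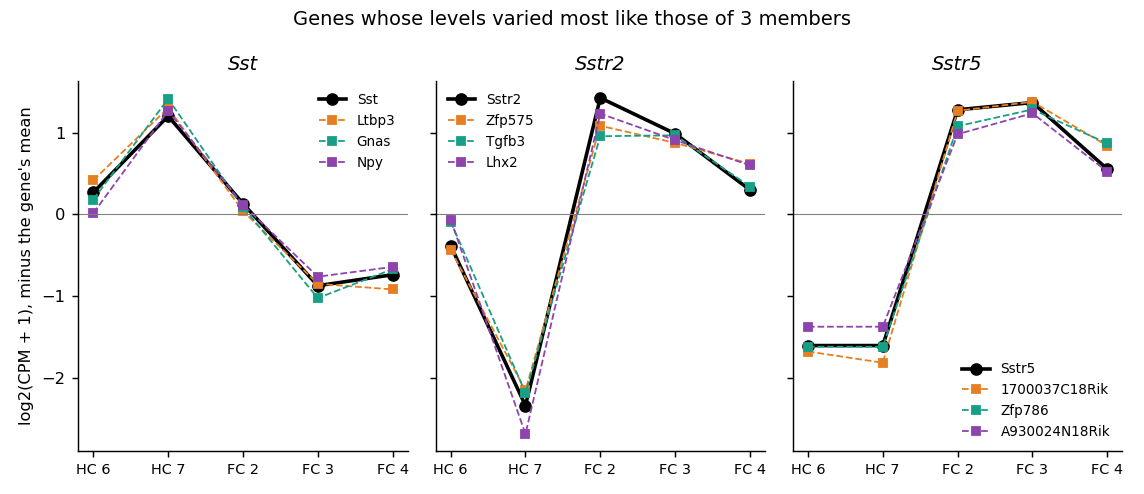
Log2(CPM + 1) minus each gene's mean in the 5 libraries, for Sst, Sstr2 and Sstr5 (black) and the 3 genes nearest to each (coloured), where lines join libraries only to guide the eye. Sst and Npy have their highest value in HC replicate 7, Sstr2 and Lhx2 their lowest, and Sstr5 lies with genes that are at or near 0 in both HC libraries.

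Genes that act with the family were taken from 8 lists (72 genes, 70 tested, since Pdzk1 was not matched and Kcnj5 was too low). Limma called 0 of the 70 after adjustment over all genes (0.0% of all genes), and 13 had an unadjusted p under 0.05, 6 higher and 7 lower in FC libraries, where 9.49 and 7.32% of all genes had one. edgeR called 0 and DESeq2 called 6, 1 higher and 5 lower, where DESeq2 called 7.5% of all genes. The median log2 fold change of the 70 was -0.13, against 0.08 over all genes. Without overlap, 9 of the 70 were higher and 19 lower in the FC libraries, where 20.2% of all genes were higher and 16.1% lower. Limma called 33 of 67 (49.3%) without HC replicate 6, where it called 60.5% of all genes, and 22 of 70 (31.4%) without HC replicate 7, where it called 27.5% of all genes. It called 0 with any other library left out. The named genes below are therefore given by their values.

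Genes that make and release the peptides included none with an unadjusted p under 0.05 among 10 tested (median log2 fold change -0.08). Cpe, the carboxypeptidase that trims peptide precursors, had a log2 difference of -0.10 and overlapped. Pcsk1, a prohormone convertase, was at 5.22, 5.21 and 4.82 CPM in FC replicates 2, 3 and 4 and at 7.91 and 0 CPM in HC replicates 6 and 7. Chgb, a granin of dense-core vesicles, was at 184 to 256 CPM in the FC and at 146 and 152 CPM in the HC libraries (log2 difference 0.52). Cadps2, which primes dense-core vesicles for release, ranged from 8.44 to 28.9 CPM in the FC libraries and was at 18 and 74.0 CPM in the HC libraries. The sorting and release genes therefore overlapped between groups in 9 of 10 cases.

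Of 6 peptidases that can break down neuropeptides, 1 had an unadjusted p under 0.05 (median 0.01). Thop1, thimet oligopeptidase, was at 34.6 to 49.4 CPM in FC and at 60.4 and 75.7 CPM in HC libraries (log2 difference -0.74). Mme, the endopeptidase neprilysin, and Nln, neurolysin, were both at 0.158 CPM in HC replicate 7 and at 10.8 and 37.9 CPM in replicate 6. For both genes replicate 7 alone lay below the FC range, and the log2 differences were 2.29 and 1.77.

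The G protein list had 2 genes higher and 2 lower with an unadjusted p under 0.05 among 12 (median -0.18). Gng2, a gamma subunit, was at 83.9, 91.4 and 55.9 CPM in FC replicates 2, 3 and 4 and at 283 and 189 CPM in HC replicates 6 and 7, a log2 difference of -1.60 (SE 0.32, limma adjusted p = 0.197, DESeq2 adjusted p = 0.000478). Gnai1, an inhibitory alpha subunit to which the receptors couple, was at 129, 133 and 109 CPM against 296 and 195 CPM. Its difference was -0.95 (SE 0.26, limma adjusted p = 0.208, DESeq2 adjusted p = 0.0148). Gng7, the gamma subunit of striatal neurons, had the opposite direction at 1401, 2347 and 1825 CPM against 746 and 1128 CPM. Its difference was 0.99 (SE 0.33, limma adjusted p = 0.241, DESeq2 adjusted p = 0.0711). Gnb5 was also higher in the FC libraries (log2 difference 0.79), so subunits differed in direction within the list.

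Of the potassium channel genes that these receptors act on, 1 of 6 had an unadjusted p under 0.05 (median -0.22). Kcnq3, an M-current subunit, was at 6.68, 8.08 and 8.24 CPM in FC replicates 2, 3 and 4. It was at 1.80 and 0 CPM in HC replicates 6 and 7, a log2 difference of 2.37 (SE 0.65, limma adjusted p = 0.210, DESeq2 adjusted p = 0.277). Kcnj3, which encodes an inwardly rectifying channel subunit, was at 14.9 to 23.2 CPM against 27.9 and 46.3 CPM (log2 difference -0.81), and Kcnj6 was at 0.298 to 1.12 CPM against 6.08 CPM in HC replicate 6 and 0 in replicate 7.

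The kinases and arrestins that switch off and internalise receptors had a median of -0.66, with 1 of 7 at an unadjusted p under 0.05. This gene, Grk2, had a log2 difference of -0.66. Arrb2, beta-arrestin 2, was at 15.9 to 18.3 CPM in FC and at 27.6 and 33 CPM in HC libraries, while Arrb1 overlapped. Grk4 and Grk5 both had HC libraries that disagreed, with Grk5 at 23.1 CPM in replicate 6 and 0.158 CPM in replicate 7.

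Scaffold proteins that bind receptor tails had a median of -0.54, with 1 of 7 at an unadjusted p under 0.05. Patj, a multi-PDZ scaffold, was at 7.11, 6.62 and 7.30 CPM in FC replicates 2, 3 and 4. It was at 22.6 and 45.5 CPM in HC replicates 6 and 7 (log2 difference -2.05, limma adjusted p = 0.200, DESeq2 adjusted p = 0.00344). Shank1, a postsynaptic scaffold that binds Sstr2, was at 4.50 to 10.5 CPM in FC and at 16.8 and 24.9 CPM in HC libraries. Shank3 overlapped between the groups, with 187 CPM in HC replicate 7 alone. Dlg4, the postsynaptic scaffold PSD-95, overlapped as well.

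Cilium genes were listed because Sstr3 is a ciliary receptor. Of 12, 2 were higher and 1 lower with an unadjusted p under 0.05 (median 0.45). Mchr1, another receptor of the neuronal cilium, was at 75.1, 90.3 and 96.4 CPM in FC replicates 2, 3 and 4 and at 30.0 and 38.5 CPM in HC replicates 6 and 7, a log2 difference of 1.33 (SE 0.27, limma adjusted p = 0.197, DESeq2 adjusted p = 0.0059). It was 1 of 2 cilium genes that were higher without overlap in the FC libraries, while 4 of the 12 were lower. Of all genes, 20.2% were higher and 16.1% lower. Arl13b, a small GTPase of the cilium membrane, was at 6.87, 7.5 and 9.43 CPM against 2.24 and 0 CPM. Bbs1, a subunit of the BBSome that carries Sstr3 and Mchr1, had the opposite direction at 16.7 to 26.1 CPM against 49.3 and 78.4 CPM. Its limma adjusted p was 0.205 and its DESeq2 adjusted p 0.0121. Tulp3 was also lower in the FC libraries (log2 difference -1.47), whereas Bbs7 and Bbs4 were lowest in HC replicate 7.

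The adenylyl cyclase and CREB genes act downstream of the receptors and upstream of Sst, and had a median of 0.43 over 10 genes, with 1 higher (Crem) and 1 lower (Adcy1) at an unadjusted p under 0.05. Adcy1, a calcium-stimulated adenylyl cyclase, was at 86.1, 91.5 and 76.9 CPM in FC replicates 2, 3 and 4 and at 195 and 290 CPM in HC replicates 6 and 7, a log2 difference of -1.48 (SE 0.26, limma adjusted p = 0.197, DESeq2 adjusted p = 0.000206). Adcy1 was lower in every FC library than in either HC library, as were 16.1% of all genes, and a link to Sst was not tested. Crem, a CREB family member with repressor forms, was at 45.1, 41.4 and 33.6 CPM against 15.4 and 0.211 CPM. Its log2 difference was 3.19 (SE 1.06, limma adjusted p = 0.237, DESeq2 adjusted p = 0.256). Creb1 itself overlapped between the groups, as did Atf1 and Prkacb, a catalytic subunit of protein kinase A.

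**Figure D5:**
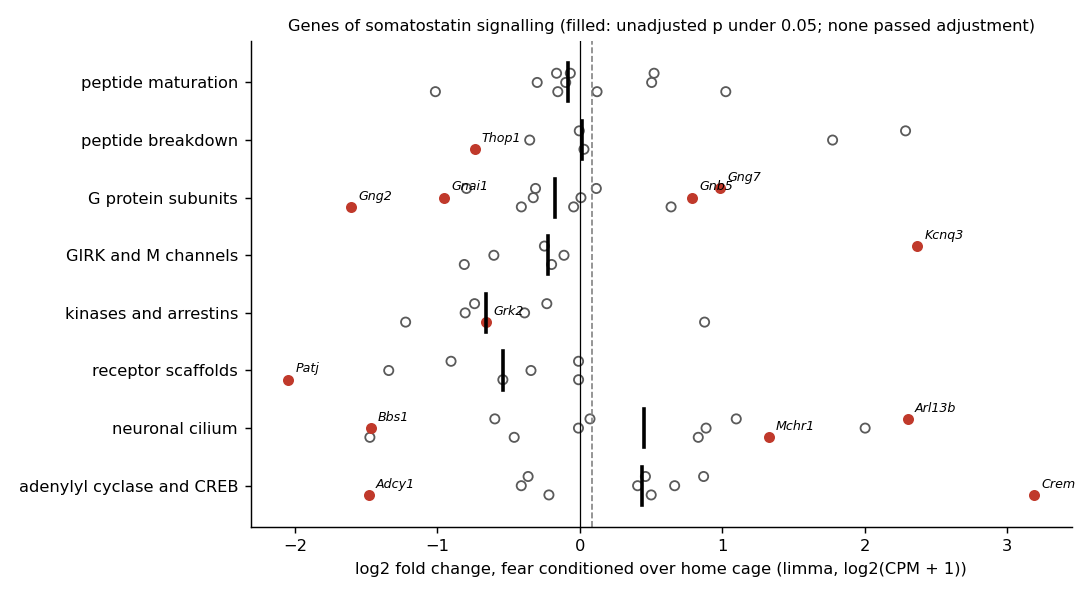
Limma log2 fold change, FC over HC on the log2(CPM + 1) scale, for each tested gene of the 8 lists around somatostatin signalling (filled and named where the unadjusted p is under 0.05), with the list median as a black bar and the median of all genes, 0.08, as a dashed line. Medians run from -0.66 for kinases and arrestins to 0.45 for cilium genes, and no gene passed the adjusted threshold.

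Markers of other cells moved with the groups, and their part in the member differences was not tested. The counts of marker genes without overlap stand against 20.2% of all genes higher and 16.1% lower in the FC libraries, and several lists are close to these shares. Of 9 interneuron genes 2 were lower and 0 higher, and their sum was 124 to 191 CPM in FC and 294 and 376 CPM in HC libraries. Lhx6, a factor of Sst and Pvalb interneurons, was at 15, 13.7 and 16.1 CPM in the FC libraries, 47.4 CPM in HC replicate 6 and only 0.527 CPM in replicate 7, where Sst was highest. Genes often found in Sst neurons included 5 of 12 that were lower and 1 that was higher (median -1.04), and their sums overlapped at 1599 to 1684 CPM against 1050 and 1774 CPM with Calb1 giving most of each sum. Chodl, a marker of a Sst subtype, was at 1.69 to 3.56 CPM in the FC libraries, 8.05 CPM in HC replicate 6 and 0 in replicate 7.

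Higher and lower again count the genes without overlap, to be read against the same 20.2 and 16.1% of all genes. CeA neuron genes summed to 13717 to 16333 CPM in FC and to 6320 and 8910 CPM in HC libraries, most of it Penk, with 2 of 10 higher and 3 lower. Choroid plexus genes summed to 108 to 183 CPM against 1897 and 2212 CPM, with 4 of 7 tested lower, and Ttr gave the largest part of the HC replicate 7 sum. Pallial glutamatergic genes summed to 55.7 to 236 CPM against 405 and 468 CPM (4 of 8 lower, 1 higher), with Slc17a7 leading. Astrocyte genes summed to 229 to 304 CPM against 493 and 656 CPM (3 of 6 lower), and oligodendrocyte genes to 1248 to 2640 CPM against 2707 and 5183 CPM (3 of 6 lower). Microglia genes overlapped at 39.6 to 71.3 CPM against 60.0 and 76.4 CPM (2 of 6 higher, 1 lower), and endothelial genes summed to 7.25 to 28.4 CPM against 46.9 and 66.5 CPM (1 of 6 higher, 1 lower). Sst and Cort were higher in both HC libraries, as were the sums of interneuron, pallial, astrocyte, oligodendrocyte, endothelial and choroid plexus genes. The sums of Sst-neuron and microglia genes overlapped. Interneuron and endothelial counts were near the shares of all genes. The endothelial sum rested in part on Kdr, at 31.3 CPM in HC replicate 7 and 0.234 CPM in replicate 6. Sstr2, Sstr3 and Sstr5 were higher in all FC libraries, as were the striatal Drd2-neuron and CeA sums, both mostly Penk. Penk is counted in both lists, so these sums are not separate observations, and the other CeA neuron genes did not share 1 direction. No link between these was tested.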

How the data were processed

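The members and gene lists were chosen with earlier results of these data known. Libraries were made with SMARTer and NexteraXT kits. The authors deposited 1 normalized signal per gene and library, in CPM of an effective library size, with a gene length. The submitters' processing notes name DESeq and the build mm8, while the aligner, software versions and use of strand are not given in the sources used here. All values (100%) were whole multiples of 1 read within 0.01, and these reads were used for the count tests and for floors of 3 reads. Names repeated in the table (43) were separated by identifier, and 9 lengths below 0 were not used.

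The groups were those of the labels. Limma 3.58.1 (lmFit, eBayes with a trend) was fitted on log2(value + 1) for the 13560 genes whose mean reached 1, and two-sided p-values were adjusted over them by Benjamini-Hochberg. A call needed an adjusted p under 0.05 together with a log2 fold change beyond 0.5 either way. edgeR 4.0.16 and DESeq2 1.42.0 were alternatives on the recovered reads. Receptor levels were ordered with an exact sign-flip permutation test on CPM per kilobase, with 0.5 reads added. The fits were also run on simulated reads with the same spread in every library. The HC libraries here did not have such a spread, so that run does not bear on the calls above. Besides the members, the genes named were the 3 nearest to each member. From each pathway list came the 3 with the largest absolute difference and the gene with the highest CPM. From each marker list came the highest-CPM or defining genes. Named after their values were seen were Slc39a11, Chodl, Kdr, Satb1 and Elfn1. So were pathway genes singled out by an unadjusted p, by DESeq2 or as a partner (Gnb5, Grk2, Bbs1, Mchr1, Creb1). An item that this rule names among the channel genes is not reported here. Promoter windows end 1 base before the RefSeq start (GRCm38.p6). R 4.3.3, Python 3.11.15 and scipy 1.17.1 were used.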

Additional observations from a re-analysis of the deposited data

How the results depend on the processing

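The alternatives were a pseudocount of 0.1, other filters on low values, quantile normalization, count tests on the recovered reads, and each library left out. No paired analysis was possible because the groups share no replicate numbers. No alternative turned the direction of Sst, Cort, Sstr2, Sstr3 or Sstr5. Their groups did not overlap, so leaving out a library or changing the pseudocount could not have turned it. Sstr4, whose groups overlapped, turned to 0.037 without HC replicate 7.

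The size of the low members depended on the scale. Cort was at -2.13 on the log2 scale with a pseudocount of 0.1, -2.12 with edgeR and -2.17 with DESeq2. Sstr3 was at 4.32 with a pseudocount of 0.1, 1.33 with quantile normalization, 5.18 with edgeR and 5.20 with DESeq2. Sstr5 was at 5.77 with a pseudocount of 0.1, 2.26 with quantile normalization, 9.9999 with edgeR and 9.46 with DESeq2, and the fitted values of a gene with 0 HC reads depend on the prior count. Quantile normalization placed Sstr4 at -0.63, Sstr4 over Sstr3 at -0.25 and Sstr3 over Sstr5 at -0.13. DESeq2 called 1017 genes and 6 pathway genes, and its median over all genes was -0.11 against 0.08.

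Leaving out 1 library, limma called 0 to 8025 genes (8025 without HC replicate 6 and 3722 without replicate 7, where the lone HC library is assumed to vary like the FC ones) and 0 to 33 pathway genes. Differences ranged from -1.70 to -0.76 for Sst, -1.76 to -0.84 for Cort, 1.29 to 3.25 for Sstr2, 1.99 to 2.49 for Sstr3, -0.31 to 0.037 for Sstr4 and 2.52 to 2.93 for Sstr5. The log2 ratio of Sstr2 over Sstr4 ranged from 2.58 to 3.9, of Sstr4 over Sstr3 from -0.22 to 1.38, of Sstr3 over Sstr5 from -0.48 to 0.55 and of Sst over Cort from 6.32 to 6.96. The causes were not tested. Depth limits Cort, Sstr3 and Sstr4, which had 1 to 120 reads per library. It also limits Sstr5, at 0 reads in both HC libraries, and Sstr2, at 12 reads in HC replicate 7.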
